A study of Homo sapiens with 4 samples.

Results

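H3K27me3 at gene promoters was compared between human embryonic stem cells with and without induction of JMJD3c, the part of JMJD3 that removes methyl groups from histone H3. All 20242 promoters present in both H3K27me3 files were joined on gene and transcript identifier, and the ratio of the +Dox to the −Dox value was read at the 1793 promoters (8.86%) where the mean of the 2 values was 20 or more. The series holds 4 chromatin immunoprecipitation sequencing (ChIP-seq) libraries, and 2 of them, 1 for each condition, give this comparison. The −Dox cells were untreated JMJD3c-hESCs, a stable line made from the embryonic stem cells SEES3 that carries HA-tagged JMJD3c under a Tet-On promoter. The +Dox cells were the same line given doxycycline (Dox) at 1 µg/ml and collected on day 3. Both conditions therefore share the transgene and the feeder-free culture, and an effect of Dox without JMJD3c cannot be told apart from one of JMJD3c here. The cells are 1 engineered line, and no label says that the 2 cultures were independent of each other.

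H3K27me3 is written by Polycomb repressive complex 2 and is removed by the demethylases JMJD3 (KDM6B) and UTX (KDM6A). In pluripotent cells the mark lies over CpG-rich promoters of developmental regulators, often together with H3K4me3, which marks promoters in use or ready for it, in a state known as bivalent. JMJD3c holds the JmjC domain of JMJD3, in which demethylation takes place.

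Values are coverage from ngs.plot, a program that scales coverage to the reads of each library, summed from 3 kb before to 3 kb after the start of a transcript. At a value of 20 a promoter held about 15.7 reads in the −Dox library and 16 in the +Dox library. With 1 library a side there is no replicate check, and no p-value is given. The 95% interval printed after a ratio comes from the approximate read numbers and covers counting error only. It compares 2 libraries, not 2 conditions. Where a pair of values is given for a gene, the −Dox value stands before the +Dox value. Whether the authors scaled the values further is not given in the sources used here. The ratios compare relative signal, so a ratio near 1 does not show that the amount of the mark was kept. Of 8 promoters of pluripotency genes used as markers of the cell type, 8 had H3K4me3 above 20 and H3K27me3 of 20 or less in both conditions.

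The core promoters of 2 genes among those with the lowest and 2 among those with the highest ratios, ranked by their counting intervals, show which DNA lies at both ends of the comparison. The sequences run from 250 bases before the start to 50 bases from it onward, from GRCh37, with each CG dinucleotide in capitals. The 2 with low ratios encode a cyclic nucleotide phosphodiesterase (PDE8A) and a subunit of the GABA-A receptor (GABRB2).
PDE8A (chr15:85523421-85523720, plus strand): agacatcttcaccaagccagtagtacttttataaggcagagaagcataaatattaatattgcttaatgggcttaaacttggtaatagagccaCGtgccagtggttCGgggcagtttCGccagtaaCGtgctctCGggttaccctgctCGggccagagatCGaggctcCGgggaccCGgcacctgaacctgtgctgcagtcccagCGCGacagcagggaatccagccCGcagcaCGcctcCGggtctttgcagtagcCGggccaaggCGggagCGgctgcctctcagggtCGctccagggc
GABRB2 (chr5:160974869-160975168, minus strand): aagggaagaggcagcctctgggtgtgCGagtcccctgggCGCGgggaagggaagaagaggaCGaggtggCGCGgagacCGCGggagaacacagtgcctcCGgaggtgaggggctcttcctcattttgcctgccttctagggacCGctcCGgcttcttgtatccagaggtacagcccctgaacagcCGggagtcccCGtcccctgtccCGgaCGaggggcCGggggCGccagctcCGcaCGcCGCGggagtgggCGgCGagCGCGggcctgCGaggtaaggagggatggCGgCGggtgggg
The 2 with high ratios encode a WNT ligand (WNT6) and the transcription factor NKX2-3.
WNT6 (chr2:219724278-219724577, plus strand): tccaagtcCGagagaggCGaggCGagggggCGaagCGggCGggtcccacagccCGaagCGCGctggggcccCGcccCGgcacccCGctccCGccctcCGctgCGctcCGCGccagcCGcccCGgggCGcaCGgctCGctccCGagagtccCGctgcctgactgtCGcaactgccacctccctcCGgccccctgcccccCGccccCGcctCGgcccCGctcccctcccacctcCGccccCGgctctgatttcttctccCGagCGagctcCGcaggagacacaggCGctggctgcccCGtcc
NKX2-3 (chr10:101292449-101292748, plus strand): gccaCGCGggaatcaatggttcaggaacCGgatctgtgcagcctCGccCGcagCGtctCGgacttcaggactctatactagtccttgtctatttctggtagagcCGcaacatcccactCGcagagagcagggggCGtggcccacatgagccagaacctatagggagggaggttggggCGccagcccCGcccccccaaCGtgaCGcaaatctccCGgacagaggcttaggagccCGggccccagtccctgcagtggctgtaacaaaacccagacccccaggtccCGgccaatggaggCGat
PDE8A held 18 and GABRB2 28 CG dinucleotides in 300 bases, against 37 at WNT6 and 18 at NKX2-3, so both ranges overlapped. CG was searched as the letters CG, which read the same on both strands. At least 1 was present in 97.9% of the 18244 core promoters that could be placed, and in 99.7% of those where a ratio was read. CG content at the start thus did not separate low from high ratios, and the median CG count was 27, 28, 28 and 26 in 4 parts of the promoters ordered from the lowest to the highest ratio.

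The signal at the 1793 promoters was lower in +Dox cells for most of them. The median value was 52.5 without and 31.3 with Dox. The log2 ratio had a median of −0.63 (95% interval over promoters −0.67 to −0.58), with the middle of the distribution between −1.13 and −0.14. The ratio was below 0.5 at 553 promoters (30.8%, Wilson interval 28.7 to 33.0%) and above 1 at 338 (18.9%, 17.1 to 20.7%). It was below 0.25 at 91 promoters and above 2 at only 5. The counting interval lay below 1 at 771 promoters (43%), above 1 at 69 (3.85%) and included 1 at 953, and its upper bound was typically 2.97 times its lower bound. Summed over these promoters the signal was 128067 without and 100128 with Dox, which gives 0.782, whereas over the 18449 other promoters it was 122997 and 113260, which gives 0.921. After scaling of the libraries to the same total over promoters, every log2 ratio was higher by 0.23 and the median was −0.39. The directions given below for lists with a median between −0.23 and 0 therefore turn under that scaling.

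Just inside the minimum were PSMB8, a proteasome subunit with a ratio of 0.643, and PITPNM3 with a ratio of 0.594. Just outside it were TRPC4, a cation channel with a ratio of 0.669, and CPNE9 with a ratio of 0.696.

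**Figure D1:**
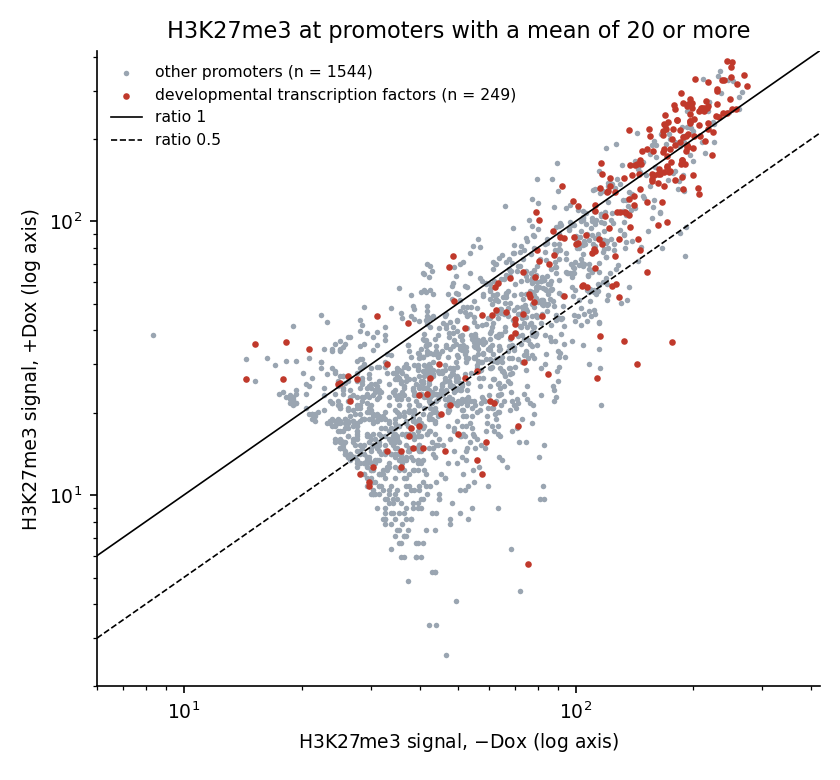
H3K27me3 signal in −Dox (x axis) and +Dox (y axis) cells, both on log axes, at the 1793 promoters with a mean of 20 or more, 1 point a promoter. The solid line marks a ratio of 1 and the dashed line a ratio of 0.5. Red points are the 249 promoters of developmental transcription factors, which gather at the upper end around and above the solid line.

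The ratio went with the amount of H3K27me3 at a promoter. Among 548 promoters with a mean between 20 and 30 the median was −0.98 on the log2 scale, and 48.4% lay below 0.5. Among 441 with a mean between 50 and 100 the median was −0.54 and 20.2% were below 0.5. Of 83 promoters between 150 and 200, 0 were below 0.5 and the median was 0.048. At the 82 promoters of 200 or more the median was 0.29, 74 had a ratio above 1 (90.2%), and the summed signal was 1.22 times that of −Dox cells. In 6 equal parts of the mean, the share below 0.5 went from 49.3% in the lowest to 2.34% in the highest part. A promoter that loses signal also has a lower mean, so level and ratio are not separate measures here.

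Exceptions at high level were few. Of the 298 promoters with a mean of 100 or more, 7 had a ratio below 0.5, and these are named after their values were seen. They were SIX6 and TBX15, transcription factors of eye and skeletal development, SLC35D3, a nucleotide sugar transporter family member, CYP26A1, which degrades retinoic acid, PDE4DIP, a centrosome and Golgi scaffold, FLI1, an ETS factor of blood and vessels, and GAD1, which makes GABA. SIX6 had the lowest ratio of the 7, at 0.205, and the others lay between 0.393 and 0.497. In the opposite corner, 7 promoters with a mean below 50 had an interval above 1. The promoters read held 548 with a mean between 20 and 30 and 506 between 30 and 50. Of all promoters read, 3.85% had an interval above 1. One of the 7 was TLX1, a homeobox gene of spleen development. It had 15.2 in −Dox and 35.8 in +Dox cells and a ratio of 2.35 (1.17 to 5.10). TLX1NB, the divergent neighbor of TLX1, had a ratio of 2.03, and the 2 windows may share reads.

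**Figure D2:**
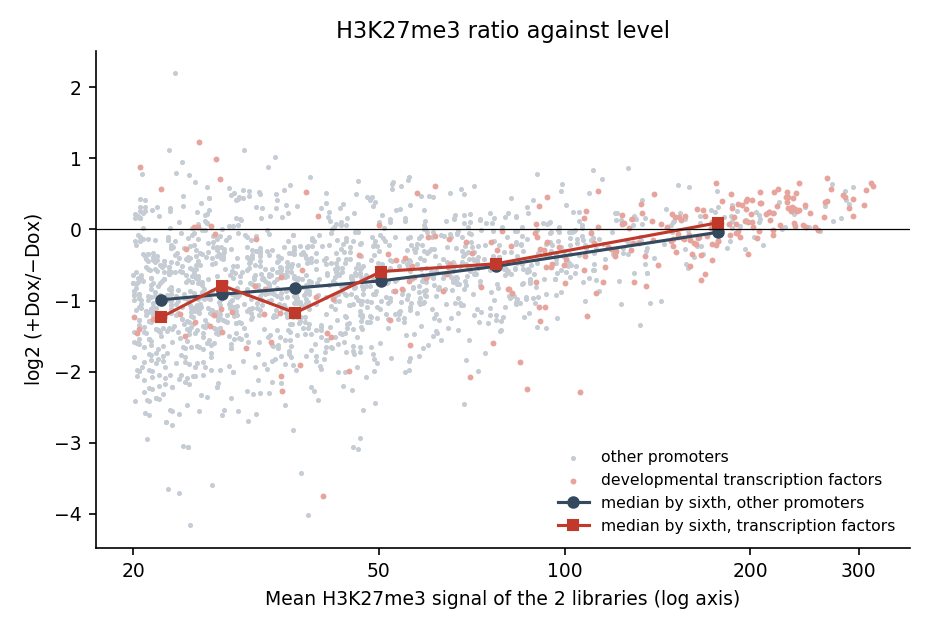
Log2 ratio of H3K27me3 (y axis) against the mean signal of the 2 libraries (x axis, log axis), 1 point a promoter. Lines join the medians of 6 equal parts of the mean for developmental transcription factors (red squares) and other promoters (dark circles), which go from −1.24 and −0.99 in the lowest part to 0.096 and −0.038 in the highest.

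Developmental transcription factors kept more of their relative signal than other genes before level was taken into account. Of the 400 promoters on the 21 transcription factor lists, 249 (62.3%) had a mean of 20 or more, against 6.76% of the promoters on no list. Their values were 141 in −Dox and 129 in +Dox cells at the median, and their summed signal had a ratio of 1.00. The ratio was above 1 at 110 of them (44.2%, against 18.9% of all promoters read) and below 0.5 at 34 (13.7%, against 30.8%). The median log2 ratio was −0.09 for these factors and −0.69 for the other 1544 promoters, a difference of 0.61. The median level was 133 for the factors and 38.1 for the others. When each log2 ratio was taken relative to the promoters in the same of 6 parts of the mean, the difference was 0.053, and relative to a running median over the mean it was −0.0087. Both references include the factors, which were 155 of the 299 promoters in the highest part, so they take out some of any difference. Within single parts, the median of the factors minus that of the others ran from −0.35 in the third part to 0.13 in the highest. The higher ratio of the class went with its higher level, and their separate parts were not tested.

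The HOX clusters, which pattern the body axis, were among the families with the most signal and were read as clusters. Of 39 promoters 38 were read, with a median log2 ratio of 0.20, 26 above 1, 13 intervals above 1 and 2 below 1. The share above 1 was 18.9% of all promoters read and 90.2% of those with a mean of 200 or more. The HOXA promoters ranged from 154 to 250 in −Dox and from 149 to 382 in +Dox cells, and 10 of 11 had a ratio above 1. HOXB had a median log2 ratio of 0.26, HOXC of 0.22 and HOXD of −0.09, where 2 of 9 were above 1. Several windows overlap within each cluster, so these promoters are not independent of each other. Relative to the running median at the same level, the median of the clusters was −0.014. Relative to the promoters in the same of 6 parts of the mean it was 0.16. Both references include the clusters themselves. Of the 82 promoters with a mean of 200 or more, 58 were developmental transcription factors. Neither value therefore compares the clusters with other promoters alone.

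Homeobox genes related to the HOX clusters also had ratios above 1. All 6 read promoters of the caudal, EVX and ParaHox list had a ratio above 1, and their median log2 ratio was 0.40. That compares with 18.9% of all promoters read, but their median level was 257. Among promoters with a mean of 200 or more, 90.2% were above 1. EVX1, a homeobox gene next to the HOXA cluster, had a −Dox value of 188, a +Dox value of 271 and a ratio of 1.44 (1.17 to 1.80). PDX1, required for the pancreas, had values of 250 and 336 and a ratio of 1.35 (1.12 to 1.63), and GSX1, a factor of the ventral forebrain, had values of 240 and 330 and a ratio of 1.38 (1.14 to 1.67). CDX2, a regulator of the intestine, had a ratio of 1.29 (1.03 to 1.62), and the intervals of EVX2 and GSX2 included 1.

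The NKX factors, which direct heart, gut, lung and neural tube identity, had a median log2 ratio of 0.24 over 9 promoters, with 0 below 0.5. The share below 0.5 was 30.8% of all promoters read. At their median level of 196 it was low in general, with 0 of the 83 promoters between 150 and 200. NKX2-3, whose promoter is printed above, had the highest +Dox value of all promoters, 384 against 243 in −Dox cells, a ratio of 1.58 (1.32 to 1.90). NKX2-1, required for lung and thyroid, had values of 230 and 304 and a ratio of 1.32. Of the 23 other NK-like homeobox promoters 14 were above 1 (60.9%), with a median of 0.04 and a median level of 168. The share above 1 was 18.9% of all promoters read and 53.0% of those with a mean between 150 and 200. HLX and HMX2 stood below them at 0.646 (0.50 to 0.830) and 0.598 (0.448 to 0.804).

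The sine oculis homeobox and EYA genes were the transcription factor list with the lowest median. They encode homeobox factors and their phosphatase partners that act in eye, ear, kidney and muscle. All 6 read promoters had an interval below 1, 5 lay below 0.5, and the list had a median of −1.63, or −0.86 relative to the running median at the same level. SIX6 (ENSG00000184302, GRCh37 chromosome 14, window 60972864 to 60978864 around its annotated start) had a −Dox value of 176, a +Dox value of 36.2 (about 138 and 29 reads) and a ratio of 0.205 (0.133 to 0.309). SIX3, required for the forebrain, had values of 50.2 and 16.8 and a ratio of 0.334 (0.160 to 0.625). SIX2, of kidney progenitors, had a ratio of 0.471, EYA2 of 0.313 and EYA4 of 0.695 (0.491 to 0.967). SIX2, SIX3, SIX6 and EYA2 thus all lay below the median of the promoters read, at means from low to high.

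SOX factors, which specify neural and endodermal progenitors, had the next lowest median, −1.24 over 8 promoters. Of these, 5 were below 0.5 (62.5%, against 30.8% of all promoters read). The median level of the list was 33.6, and 37.9% of promoters with a mean between 30 and 50 were below 0.5. The list median had an interval of −2.06 to 0.71 and was −0.40 relative to the running median. SOX3, a neural progenitor factor, had values of 55.9 and 13.4 and a ratio of 0.240 (0.114 to 0.482). SOX14, of interneurons, had values of 129 and 52.9 and a ratio of 0.409 (0.277 to 0.590). SOX17, an endoderm factor, had values of 185 and 195 and a ratio of 1.05 (0.836 to 1.33), so this family was split.

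Several families with kept signal contained 1 or a few members that stood apart from the others. In the PAX family, factors of eye, kidney, muscle and vertebral development, 6 of 7 promoters were above 1, from 1.07 at PAX2 to 1.4 at PAX9. The share above 1 was 18.9% of all promoters read and 53.0% of those with a mean between 150 and 200. The median level of the PAX list was 173, and 2 of its 7 intervals lay above 1. Relative to the running median at the same level the list was at 0.083. PAX7 (GRCh37 chromosome 1, window 18954340 to 18960340), the marker of muscle stem cells, had a −Dox value of 133, a +Dox value of 36.5 and a ratio of 0.274 (0.175 to 0.416). OTX2 (GRCh37 chromosome 14, window 57274166 to 57280166), a factor of forebrain and eye that is also active in pluripotent cells, had values of 143 and 30.2 and a ratio of 0.211 (0.128 to 0.326). In the same list EN1 and EN2, of midbrain and hindbrain, had ratios of 1.37 (1.1 to 1.69) and 1.28 (1.02 to 1.63), OTX1 0.933 and EMX2 1.06, while EMX1 of the cortex had 0.539 (0.389 to 0.736). POU3F1 had values of 73.8 and 30.6 and a ratio of 0.414 (0.241 to 0.663), against ratios between 0.898 and 1.38 for the other 5 POU3 and POU4 promoters.

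T-box genes, which shape limb, heart and mesoderm, spread from 0.428 to 1.65 over 11 promoters. TBX2 had a −Dox value of 201, a +Dox value of 332 and a ratio of 1.65 (1.35 to 2.02). Its relatives TBX5, of heart and forelimb, and TBX15 had 127 and 59.3 and 153 and 65.2, ratios of 0.468 (0.322 to 0.665) and 0.428 (0.301 to 0.593). TBX3 lay between these and TBX2 at 0.562 (0.384 to 0.814). The intervals of TBX2 and TBX3, close paralogs, did not overlap.

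The 6 DLX genes of forebrain and craniofacial development lay near 1. DLX1 and DLX2, which share 1 cluster, both had a ratio of 1.32, with intervals of 1.05 to 1.66 and 1.04 to 1.68, and DLX3 to DLX6 lay between 0.788 and 0.930 with intervals that included 1. LIM homeobox genes, of motor neurons and forebrain, had a median of −0.12 over 11 promoters, from 0.612 (0.472 to 0.788) at LHX1 to 1.14 (0.680 to 1.96) at LMX1B. Among 19 paired-like homeobox promoters UNCX, of the axial skeleton, had a ratio of 1.57 (1.23 to 2.03).

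The forkhead list, 21 of 49 promoters read, had a median of −0.37. FOXA2 (GRCh37 chromosome 20, window 22563093 to 22569093), a pioneer factor of endoderm, had a −Dox value of 114, a +Dox value of 26.8 and a ratio of 0.236 (0.137 to 0.375), and FOXP2, of speech circuits, values of 84.8 and 27.6 and a ratio of 0.325 (0.189 to 0.528). FOXB2 was at the other end with 1.23 (1.02 to 1.49). Of 4 GATA promoters read, all had intervals that included 1, from 0.755 at GATA3 to 1.09 at GATA6. The value of GATA4 comes from a start 27243 bp from the canonical one, so it does not describe the main promoter. Neurogenic bHLH factors had a median of −0.52 over 14 promoters. NEUROG3, of endocrine pancreas, had values of 115 and 38 and a ratio of 0.330 (0.209 to 0.499), while OLIG2, of oligodendrocytes, had 1.18 (0.951 to 1.48). In the mesodermal bHLH list MYF6, a muscle factor, had values of 57.8 and 11.9 and a ratio of 0.206 (0.0979 to 0.438), and HAND1, of the heart, values of 208 and 259 and a ratio of 1.24.

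Zinc finger factors of development gave the promoter with the lowest upper bound of all. ZFHX4 had a −Dox value of 75.7, a +Dox value of 5.59 (about 59 and 4 reads) and a ratio of 0.0739 (0.0175 to 0.179). ZIC1 and ZIC4, neighbors that pattern the cerebellum, had 0.349 (0.184 to 0.601) and 0.266 (0.137 to 0.522). EGR3 and WT1, of muscle spindle and kidney, had 1.33 (1.06 to 1.67) and 1.27 (1.04 to 1.57). Outside the lists, the neural factors PRDM12 and DMRTA2 had 1.57 (1.29 to 1.92) and 1.52 (1.26 to 1.84), and SCRT1 had 1.79 (1.29 to 2.45).

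**Figure D3:**
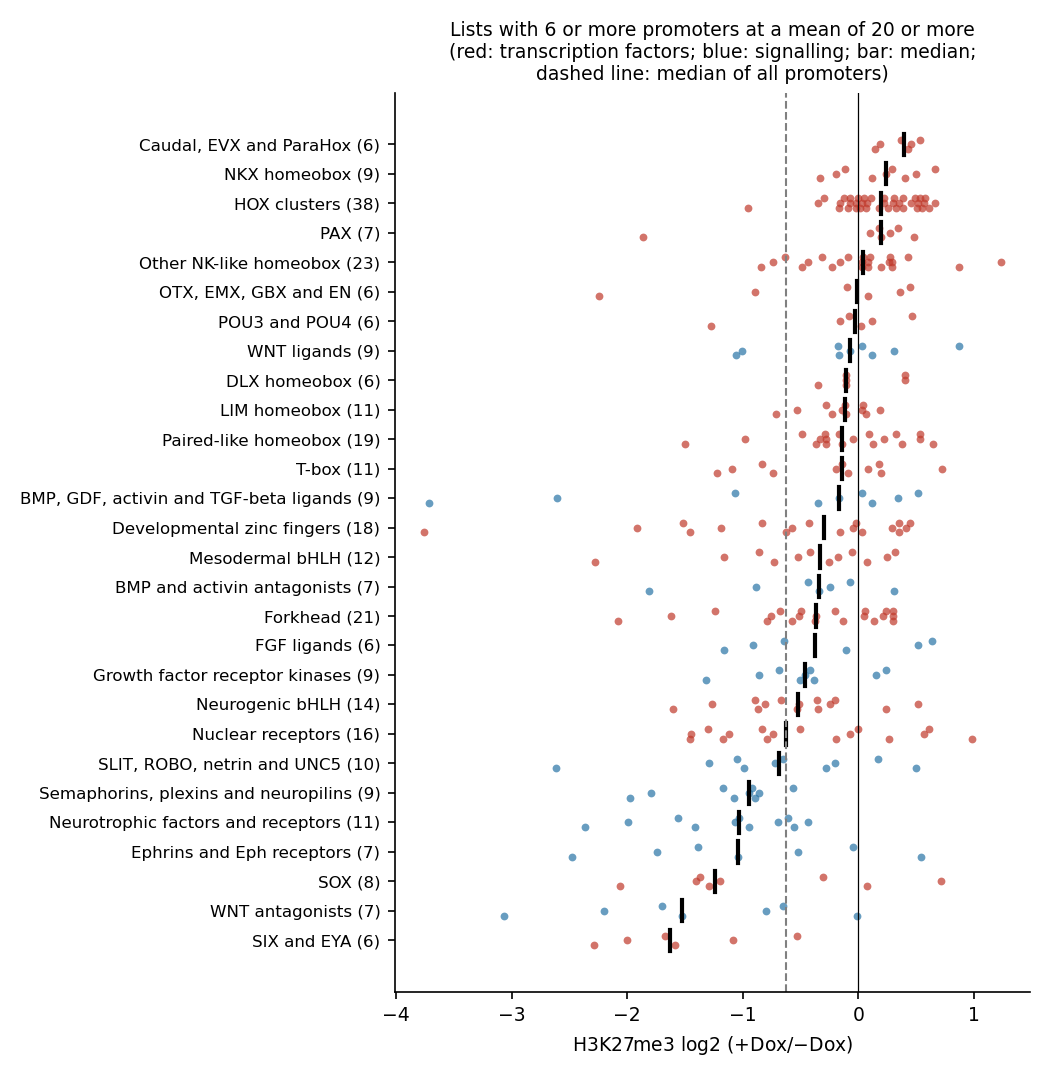
Log2 ratio of H3K27me3 (x axis) of each promoter on the transcription factor lists (red) and signaling lists (blue) with 6 or more promoters read, whose number stands in parentheses. Black bars are list medians, from −1.63 for the sine oculis and EYA genes to 0.40 for caudal, EVX and ParaHox, and the dashed line is the median of all promoters read, −0.63.

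Signaling genes had a median log2 ratio of −0.65 over 105 promoters, close to that of all promoters read, but the parts of a pathway differed in value. In the WNT pathway secreted ligands bind Frizzled receptors, and secreted antagonists hold the ligands or coreceptors back. The 9 ligands had a median of −0.07 and a summed ratio of 1.00. WNT6 had a −Dox value of 89.8, a +Dox value of 164 and a ratio of 1.83 (1.36 to 2.49), WNT3A 1.24 (0.873 to 1.76) and WNT10B 1.09 (0.841 to 1.42). WNT11 and WNT5B, which mostly act outside the β-catenin route, had 0.480 (0.315 to 0.730) and 0.499 (0.296 to 0.826).

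The receptors and antagonists lay lower. All 3 Frizzled promoters read had intervals below 1, and FZD2 had values of 83.3 and 15.3 and a ratio of 0.184 (0.0890 to 0.338). The 7 antagonists had a median of −1.52, and 5 intervals lay below 1. Such intervals made up 43% of all promoters read. SFRP1, a decoy receptor, had a −Dox value of 81.0, a +Dox value of 9.69 (about 64 and 8 reads) and a ratio of 0.120 (0.0507 to 0.256). WIF1, which binds WNT proteins, had values of 71.9 and 15.7 and a ratio of 0.218 (0.114 to 0.421). DKK1, which blocks the LRP coreceptor, had values of 59.3 and 18.3 and a ratio of 0.308 (0.162 to 0.569), and NOTUM, an enzyme that inactivates WNT, had values of 73.4 and 73.1 and a ratio of 0.996. The level was lower for the antagonists, 43.4 at the median, than for the ligands, 94.6. Relative to the running median at the same level the antagonists were at −0.48, the receptors at −0.33 and the ligands at 0.24.

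The BMP, GDF, activin and TGF-beta ligands spread widely, with a median of −0.16 over 9 promoters. Of these, 3 were below 0.5 (33.3%) and 4 above 1 (44.4%), against 30.8% and 18.9% of all promoters read. BMP3 had a −Dox value of 44.1, a +Dox value of 3.36 (about 35 and 3 reads) and a ratio of 0.0761 (0.0165 to 0.267). BMP4, an inducer of mesoderm and extraembryonic fate, had values of 54.4 and 8.95 and a ratio of 0.165 (0.0606 to 0.358), and BMP2 0.476 (0.238 to 0.906). The growth differentiation factors GDF6 and GDF7 had 1.27 (0.995 to 1.60) and 1.09 (0.734 to 1.66), and INHBB, an activin subunit, 1.43 (0.946 to 2.16). BMP6, BMP8A and BMP8B lay between 0.786 and 1.02, and their intervals included 1. Their antagonists were mixed, with 0.286 (0.164 to 0.473) at CER1, expressed in early endoderm, and 1.24 (0.691 to 2.24) at NOG.

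Among FGF ligands FGF3, which acts in the ear, had a −Dox value of 77.6, a +Dox value of 121 and a ratio of 1.56 (1.12 to 2.18), while FGF9 had values of 101 and 45.1 and a ratio of 0.446 (0.293 to 0.671). DUSP4, a phosphatase that dampens the MAP kinase signal downstream of FGF, had values of 116 and 21.3 and a ratio of 0.183 (0.102 to 0.310). Hedgehog genes also differed from each other. IHH, the ligand of growing bone, had values of 41.8 and 70.1 and a ratio of 1.68 (1.06 to 2.64), SHH had 0.774 (0.561 to 1.08) and HHIP, which sequesters the ligands, 0.496 (0.291 to 0.807). IGFBP7, which binds insulin-like growth factors, had values of 72.3 and 4.47 (about 57 and 4 reads) and a ratio of 0.0619 (0.0181 to 0.186), and its relative IGFBP3 had 0.697 (0.445 to 1.08).

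**Figure D4:**
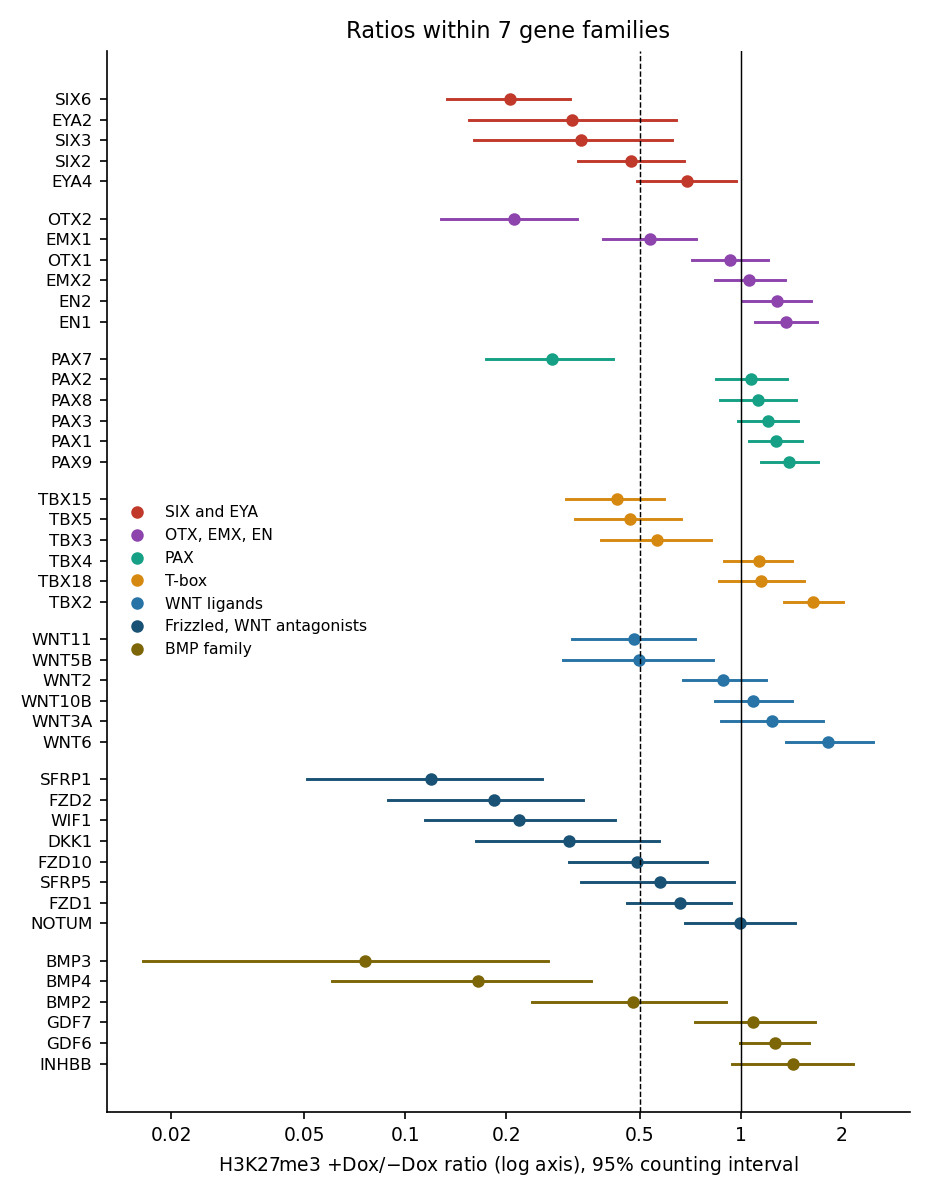
H3K27me3 ratio of named promoters (x axis, log axis) in 7 families, with points for the ratio and bars for its 95% counting interval. The solid line marks a ratio of 1 and the dashed line 0.5. The sine oculis and EYA promoters shown all lie below 1, whereas PAX7 at 0.274 and OTX2 at 0.211 lie apart from relatives around or above 1.

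Neurotrophic, Eph and semaphorin genes had lower medians than signaling genes as a class. Neurotrophic factors and their receptors, which sustain neurons, had a median of −1.03 over 11 promoters, with 6 below 0.5, 8 intervals below 1 and 0 ratios above 1. The shares of all promoters read were 30.8%, 43% and 18.9%. NTF3 had a −Dox value of 116, a +Dox value of 29.1 and a ratio of 0.252 (0.150 to 0.395), GFRA1, the GDNF coreceptor, values of 105 and 35.4 and a ratio of 0.339 (0.210 to 0.520), and NGFR values of 44.1 and 8.58 and a ratio of 0.194 (0.0735 to 0.448). GDNF itself had 0.657 (0.471 to 0.922). At a median level of 68.0 this list was −0.56 relative to the running median.

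Ephrins and Eph receptors, contact signals that repel axons and cells, had a median of −1.04 over 7 promoters, with an interval of −2.47 to 0.54. EFNA5 had values of 41.5 and 7.46 and a ratio of 0.180 (0.0611 to 0.431), and EPHA4 0.298 (0.114 to 0.657), whereas EFNA1 had 0.968 (0.507 to 1.74) and EPHA10 1.46 (0.777 to 2.65), so this list was spread. Semaphorins and their receptors had a median of −0.94 over 9 promoters. It was −0.31 relative to all promoters read and −0.16 relative to the running median at their low level. All 9 had a ratio below 1, against 81.1% of all promoters read. NRP1, a receptor for semaphorins and VEGF, had values of 74.5 and 33.2 and a ratio of 0.445 (0.273 to 0.719). In the SLIT, ROBO, netrin and UNC5 list UNC5C, a netrin receptor, had values of 47.9 and 7.83 and a ratio of 0.163 (0.0535 to 0.369), while ROBO3, of midline crossing, had values of 170 and 192 and a ratio of 1.13 (0.888 to 1.43).

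Neuronal genes other than transcription factors had a median of −0.66 over 139 promoters. GABA and glycine receptors, the inhibitory receptors, had a median of −1.09 over 7. GABRB2 had a −Dox value of 68.5, a +Dox value of 6.34 and a ratio of 0.0926 (0.0283 to 0.225). GABRA6 had 0.141, but its deposited window overlaps that of GABRB2 and is not a second observation. GABBR2, of the metabotropic receptor, had 1.41 (0.938 to 2.09). Of 14 glutamate receptors 5 were below 0.5 (35.7%) and 4 above 1 (28.6%), against 30.8% and 18.9% of all promoters read. GRIK2, a kainate receptor, had values of 66.9 and 12.7 and a ratio of 0.189 (0.0839 to 0.367), and the NMDA receptor subunits GRIN2D and GRIN2A had 0.209 and 0.260, whereas GRIN2C had 1.28 (0.924 to 1.78).

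Monoamine receptors had a median of −1.06 over 9 promoters, with the serotonin receptors HTR1B at 0.305 (0.165 to 0.530) and HTR1E at 0.296 (0.118 to 0.686). Potassium channels, the largest neuronal list with 35 promoters read, had a median of −0.42. Of these, 7 were below 0.5 (20%) and 3 above 1 (8.57%), against 30.8% and 18.9% of all promoters read. They ranged from KCNJ9, an inward rectifier, at 0.231 (0.0735 to 0.539) to KCNK4, a mechanosensitive channel, at 1.43 (1.04 to 1.95). Relative to the running median the channels were at 0.21, the monoamine receptors at −0.10 and the inhibitory receptors at −0.10. In the neural cell adhesion list 13 of 13 ratios were below 1, against 81.1% of all promoters read, and NRCAM, of axon contacts, had values of 59.7 and 10.8 and a ratio of 0.181 (0.0809 to 0.387). The median of this list, −0.92, was −0.29 relative to all promoters read and 0.045 relative to the running median.

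Adhesion and matrix genes had a median of −0.66 over 55 promoters, close to that of all promoters read. None of their intervals lay above 1, against 3.85% of all. Such intervals were rare at their median level of 36.9. They were 2 of 299 in the part of the level from 31.6 to 42.4, and 54 of 299 in the highest part. Cadherins, calcium-dependent adhesion proteins, had a median of −0.94 over 7, and CDH11, of mesenchyme, had values of 73.8 and 32.4 and a ratio of 0.440 (0.266 to 0.709). Collagens had a median of −0.56 over 11, from COL25A1 at 0.292 (0.149 to 0.576) to COL4A3 at 1.30 (0.647 to 2.46). Membrane and metabolic genes had a median of −0.74 over 64. Among the retinoic acid hydroxylases, CYP26A1 had values of 167 and 80.2 and a ratio of 0.481 (0.349 to 0.651), CYP26C1 0.605 (0.446 to 0.814) and CYP26B1 0.823 (0.602 to 1.11). Adhesion and orphan G protein-coupled receptors had a median of −0.85 over 19, with LPHN3, a synaptic latrophilin, at 0.20 (0.0775 to 0.413).

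Genes of the Polycomb system had a mean of 20 or more at 7 of 30 promoters, against 8.86% of all promoters. CBX8, a reader of H3K27me3, had a −Dox value of 235, a +Dox value of 295 and a ratio of 1.26 (1.03 to 1.53). EZH1, a methyltransferase of the writing complex, had values of 32.7 and 7.83 and a ratio of 0.239 (0.0761 to 0.562). KDM6A, KDM6B and the core writers EZH2, EED and SUZ12 had means under 20. Of the CDK inhibitors, CDKN2A had 0.980 (0.707 to 1.36), CDKN2B 0.537 (0.295 to 0.988) and CDKN1A 0.486 (0.251 to 0.920).

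Some classes did not carry enough of the mark to be read. None of the 52 clustered protocadherins, 55 keratins, 83 ribosomal proteins, 71 replication-dependent histones or 17 pluripotency genes had a mean of 20 or more. Of 382 olfactory receptors 2 did. OR4N4 had the highest ratio of all promoters, 4.59 (1.88 to 11.7), from 8.37 in −Dox and 38.4 in +Dox cells, about 7 and 31 reads. Its core promoter held 0 CG dinucleotides, and it belongs to a family of near-identical copies among which reads can be split.

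Genes on no list also appeared among the lowest ratios. PDE8A had a −Dox value of 46.8, a +Dox value of 2.61 (about 37 and 2 reads) and a ratio of 0.0558 (0.00619 to 0.205), the lowest of all. PPP1R3D, which targets a phosphatase to glycogen, had values of 49.4 and 4.10 and a ratio of 0.0830 (0.0149 to 0.237), and IER5L values of 42.2 and 3.36 and a ratio of 0.0795 (0.0175 to 0.284). The value of PSMA1, a proteasome subunit, a ratio of 0.117 with values of 82.9 and 9.69, was taken at 123231 bp from the canonical start, and that of EIF4E3, with a ratio of 0.121, from 28981 bp away. Their windows overlap those of PDE3B and GPR27, so the signal cannot be assigned to either gene of a pair. Other promoters described here were also read far from the canonical start, at 328488 bp for FOXP2, 99340 bp for WNT5B, 20444 bp for CDKN2A, 15943 bp for ZIC1, 7537 bp for FLI1, 5080 bp for GRIK2, 4456 bp for CBX8, 4292 bp for PAX9 and 2298 bp for TBX5. Their values describe those starts and not the main promoter of the gene, and the same holds for GATA4. The start of ZFHX4 could not be placed, so its distance from the canonical start is not known. PDE8A, GABRB2, TBX15, EMX1 and NRP1 were read between 1187 and 1595 bp away.

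The other mark at the same promoters went with the H3K27me3 ratio. H3K4me3 was above 20 in −Dox cells at 1558 of the 1793 promoters (86.9%), and at 12887 of all 20242 promoters. Most of the promoters read thus carried both marks. They were selected on the mean H3K27me3 of both conditions, so a −Dox value above 20 was not required. In the 553 promoters with an H3K27me3 ratio below 0.5 the median H3K4me3 value was 44.5 without and 42.5 with Dox, and H3K4me3 was higher in +Dox cells at 44.8% of them. That share was 44.2% of all 12840 promoters with a mean H3K4me3 of 20 or more, a set selected on H3K4me3. At the 902 promoters read with an H3K27me3 ratio from 0.5 to 1 it was 28.3%. In the 338 promoters with an H3K27me3 ratio above 1 the medians were 32.5 and 22.9, and H3K4me3 was higher in +Dox cells at 14.5%. In each of 6 parts of the H3K27me3 mean, the promoters with the higher ratios had the lower median H3K4me3 in +Dox cells.

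Transcription factors with a low H3K27me3 ratio were those with the most H3K4me3 in +Dox cells. At the 34 with a ratio below 0.5 the median H3K4me3 value was 51.2 without and 71.0 with Dox, and 22 of them (64.7%) had more in +Dox cells, with 5 intervals above 1 and 0 below. Of all promoters with a mean H3K4me3 of 20 or more, 1.76% had an interval above 1 and 3.91% below, but that set was selected on H3K4me3. Among the 519 other promoters read with an H3K27me3 ratio below 0.5, 226 (43.5%) had more H3K4me3 in +Dox cells. Of their intervals 16 lay above 1 and 27 below. At the 110 transcription factors with an H3K27me3 ratio above 1 the medians were 25.4 and 16.4. Of them, 18 (16.4%) had more H3K4me3 in +Dox cells, with 0 intervals above 1 and 15 below. Among the 228 other promoters with such a ratio, 31 (13.6%) had more, with 1 interval above 1 and 50 below. H3K4me3 at SIX6 had a −Dox value of 59.8, a +Dox value of 145 and a ratio of 2.43 (1.75 to 3.36). TBX5 had values of 30.5 and 81.3 and a ratio of 2.67 (1.70 to 4.22) and PAX7 values of 34.2 and 63.4 and a ratio of 1.85 (1.16 to 2.90). At OTX2 and FOXA2 the ratios of 1.50 (0.963 to 2.33) and 1.47 (0.983 to 2.16) had intervals that included 1. Each of the 4 libraries was single, and whether the marks moved together in replicate cultures was not tested.

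Base composition also went with the ratio, in the wide window and not at the start. In 4 parts from the lowest to the highest ratio, the median GC content of the window was 50.3, 51.7, 52.8 and 56.4%, and its median CG count was 192, 205, 224.5 and 259. Over all placed promoters divided into 5 parts by window GC, the summed H3K27me3 ratio of promoters with a mean of 20 or more was 0.536, 0.561, 0.680, 0.735 and 0.917. In the promoters with a mean under 20 it was 0.951, 0.940, 0.903, 0.894 and 0.892, which is the opposite order over a much narrower range. Within each of 6 parts of the H3K27me3 mean, the promoters with the higher ratios had the higher median GC content and CG count. The CG count divided by that expected from the C and G content did not follow this. In the lowest part its median was 0.482 at the lower and 0.506 at the higher ratios. In the other parts it was lower at the higher ratios, such as 0.540 and 0.510 in the third part and 0.626 and 0.615 in the highest. Between chromosomes with at least 20 promoters read, the median log2 ratio ran from −0.85 on chromosome 4 to −0.32 on chromosome 12. GC content and level move together here, and their separate parts in the ratio were not tested.

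**Figure D5:**
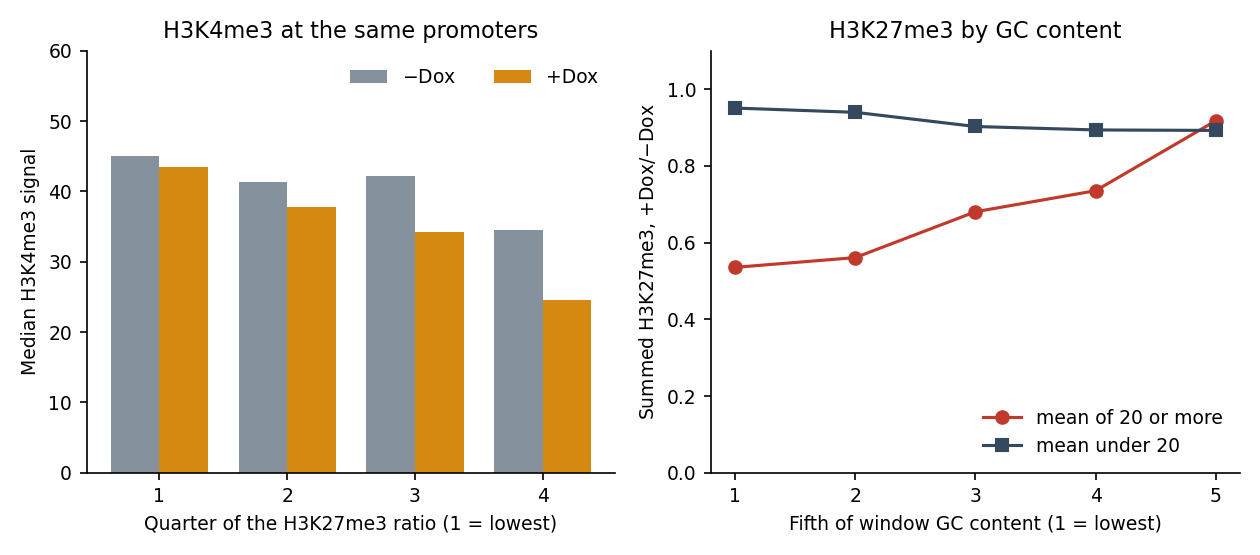
Left, median H3K4me3 signal (bars from 0) in −Dox and +Dox cells for 4 parts of the H3K27me3 ratio, from 45.0 and 43.4 in the lowest to 34.5 and 24.6 in the highest. Right, +Dox/−Dox ratio of the summed H3K27me3 signal for 5 parts of window GC content, which goes from 0.536 to 0.917 where the mean was 20 or more (red) and from 0.951 to 0.892 where it was lower (dark).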

How the data were processed

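ChIP-seq libraries for H3K27me3 from −Dox and +Dox JMJD3c-hESCs were compared, 1 a group, with the H3K4me3 libraries read at the same promoters. The authors sequenced single-end reads on a MiSeq, processed them with CASAVA 1.4, used Bowtie2 for alignment to hg19 and left out mitochondrial reads. Their deposited files hold signal, which is coverage from ngs.plot per library reads, summed over 3 kb on each side of the start of 1 transcript per gene. Whether the scaling to the density after transcription ends named in the study's methods was applied is not given in the sources used here. Background was not subtracted with an input library.

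The summed signal was 251063 in −Dox and 213388 in +Dox. Every value was a multiple of the same step within its file, and with about 3.35 points a read, which is an estimate, the windows held about 197125 and 170915 reads. Ratios carry no pseudocount and were read at a mean of 20 or more. Intervals of ratios are exact Clopper-Pearson intervals of the +Dox share of approximate reads, those of medians come from order statistics and those of shares are Wilson intervals. The interval procedure was tested on simulated data. Reads are not independent molecules, so intervals cover counting error only.

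The 72 gene lists, the members and the rules were chosen with earlier results of these data known. Genes named overall were the 12 with the lowest upper bound and the 12 with the highest lower bound of the interval. In each list they were every member where 6 or fewer were read, and otherwise up to 3 with the lowest upper and 3 with the highest lower bounds. HOX genes were kept as clusters, and windows that overlap were counted once in the overall ranking. Transcripts were placed by GENCODE 44 on GRCh37, the assembly behind hg19, for 18244 promoters (90.1%), of which 1637 had a ratio read. Among 1629 ratios with a known canonical start, 194 came from a start over 1 kb away from it, and 192 promoters shared their window with another. Sequences are from GRCh37. Some genes and sequences that these rules choose are not reported here. Promoters in 28 rows whose symbol had become a date were kept under their identifiers. Alternatives were other scalings, minimum means of 10 and 50, selection on either condition, a pseudocount of 5, 1 promoter per symbol or window set, and ratios relative to promoters of the same level. Python 3.11.15, numpy 2.4.6, pandas 2.3.3 and scipy 1.17.1 were used.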

Additional observations from a re-analysis of the deposited data

How the results depend on the processing

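No paired analysis was possible because both conditions hold a single library, and leaving a library out was not possible either. The median log2 ratio of −0.63 was −0.39 after scaling to the same total, −0.56 at a minimum mean of 10, −0.28 at one of 50, −0.79 with selection on −Dox, −0.36 with selection on +Dox and −0.56 with a pseudocount of 5. The share below 0.5, 30.8%, was 20.7% with the same total, 13.0% at a mean of 50, 40.4% and 14.7% with selection on −Dox and +Dox, and 23.5% with the pseudocount. The share above 1, 18.9%, was 29.4% with the same total, 25.5% and 30.6% at means of 10 and 50, and 14% and 28.5% with selection on −Dox and +Dox. The difference of 0.61 between transcription factors and other promoters was 0.49 and 0.40 at means of 10 and 50, 0.77 and 0.41 with selection on −Dox and +Dox, 0.053 relative to 6 parts of the level and −0.0087 relative to a running median. The last setting and the one without the HOX clusters, which gave 0.54, were chosen after seeing the data. All of these except the difference relative to the running median kept their direction.

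Of 599 recomputed list medians, 570 stayed within the interval of the list. The sign changed in 26, 11 of them with the same total, and in 4 of the 26 the interval of the list did not include 0. Those 4 were the TFAP2, RUNX and TEAD list at 0.026 with the same total, monoamine receptors at 0.027 at a mean of 50, interferon and toll-like receptors at 0.026 at a mean of 10 and ZNF zinc fingers at 0.11 with selection on +Dox. Relative to all promoters read, the sign of 20 of 67 lists turned against the running median and that of 17 in 6 parts of the level. Where the interval of the list lay on 1 side of the median of all promoters, the lists that turned were the HOX clusters (−0.014), the TFAP2 list (−0.081, and −0.15 in 6 parts), neural cell adhesion (0.045) and matrix metalloproteinases (0.25, and 0.16 in 6 parts). The cause was not tested. Depth limits single promoters, since a value of 20 rests on about 16 reads.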
